A study of Homo sapiens with 12 samples.

Results

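A set of 10 Wnt pathway genes is described here: the ligands WNT5A, WNT5B and WNT7B, the secreted antagonists DKK1 and DKK3, the R-spondin receptor LGR4, the ubiquitin ligase RNF43, the feedback gene AXIN2, and the nuclear factors TCF7 and LEF1. They are 10 of the 27968 genes counted, chosen by symbol and by role in the pathway, and all 10 passed the filter on low counts. LEF1, without a count in A549, passed it through MDA-MB-231 alone. The choice was made with earlier results of these data known. Shares of members set beside shares of all genes are therefore descriptions and not tests. RNA sequencing compared A549, a human lung cancer line, and MDA-MB-231, a human breast cancer line, each grown flat (2D) and within Matrigel, an extract of basement membrane (3D). The stated aim was to profile genes regulated by extracellular matrix. Each of the 4 groups had 3 libraries, 12 in all. Both cultures used DMEM with 10% FBS and no treatment. Flat cultures were harvested near 80% confluence, at a time the labels do not give, and Matrigel cultures after 4 days, so matrix, cell density and time in culture cannot be told apart. Whether libraries within a group were grown separately is not stated. The p-values therefore cover the spread among these libraries alone, and that spread may be technical.

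WNT proteins are secreted lipid-modified ligands that bind Frizzled receptors. In the canonical branch, together with LRP co-receptors, they stop the destruction complex from marking beta-catenin for degradation, and beta-catenin then acts with TCF and LEF proteins on target genes. Pathway output is held in check by feedback: AXIN2 is a scaffold of the destruction complex and a widely used target gene, RNF43 removes Frizzled from the cell surface, DKK1 blocks LRP co-receptors, and R-spondins acting through LGR4 relieve the block by RNF43. In lung and breast the pathway is known for roles in epithelial progenitors and in branching during development.

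The libraries held 5609327 to 28171901 expected counts each. Both ends lay in A549 3D, in replicates 2 and 3, with 9873213 in its replicate 1. Libraries of the other groups held 11624620 to 21227363. A549 in 3D was the most variable group, with a biological coefficient of variation of 0.18 against 0.0377 to 0.0563 in the other groups. Its replicate 1 stood apart, with 16.5% ribosomal RNA against 3.53% and 4.72% in the other two. The mean fragment length was 133.7 to 141 bases in A549 3D and 176.5 to 187.3 in A549 2D; in MDA-MB-231 it was 181.4 to 188.1 in 3D and 208.3 to 216.8 in 2D. None of 8 alveolar markers averaged over 1 CPM, the count scaled to library size, in A549, while 2 did in MDA-MB-231 2D. Of 8 mammary markers, 3 did in MDA-MB-231 2D and 3 in its 3D culture, but so did 3 in A549 2D and 4 in A549 3D, so that list did not set the breast line apart. Summed epithelial markers (7 genes) were 3740 to 3980 CPM in A549 2D and 10300 to 13500 in 3D, and 779 to 811 and 1480 to 1590 in MDA-MB-231. Most of each sum was KRT8, KRT18 and KRT19. In MDA-MB-231 the mean of CDH1 was 1.47 CPM in 2D and 0.192 in 3D, and that of EPCAM 23.0 and 8.77. That of CLDN7 was higher in 3D there, at 19.1 and 40.5 CPM. In A549 the means of CDH1 (13.5 to 65.7 CPM), EPCAM (4.03 to 13.7) and CLDN7 (0.273 to 2.89) were all higher in 3D. ESRP1 was below 1 CPM in every group. Summed mesenchymal markers (7 genes) were also higher in 3D, at 1320 to 1340 and 3910 to 5590 CPM in A549. The MDA-MB-231 sums were 3260 to 3310 in 2D and 4290 to 4730 in 3D. Single genes of the list went both ways. In A549 FN1 went from 166 to 3799 CPM and SPARC from 15.6 to 16.4. VIM (1002 to 690 CPM), CDH2 (108 to 46.6), ZEB1, TWIST1 and SNAI2 had lower means there in 3D. VIM (2653 to 3671 CPM) and FN1 (500 to 772) were higher in MDA-MB-231 3D. ZEB1 (93 to 56.9 CPM), SNAI2 (34.5 to 24.4) and CDH2 were lower in it, with SPARC at 0.404 and 0.398 and TWIST1 at 0. Summed leukocyte markers (7 genes) were 9.06 to 10.7 and 33.2 to 53.8 CPM in A549, and 94.7 to 110 and 241 to 270 in MDA-MB-231. CD68 (3.73 and 19.5 CPM in A549, 99.8 and 240.4 in MDA-MB-231) and CD14 (2.07 and 20.4, 1.82 and 17.0) made up most of the increase, while the pan-leukocyte marker PTPRC was below 1 CPM in every group and CD3E was at 0. Summed fibroblast markers (6 genes) were 6.91 to 9.55 and 9.52 to 11.3 CPM in A549, and 8.98 to 10.8 and 11.8 to 12.4 in MDA-MB-231, with DCN at 0 in all 4 groups and COL1A1 at 1.68 to 10.6 CPM. Summed endothelial markers (4 genes) were at most 1.25 CPM in A549 and 11.9 to 17.6 in MDA-MB-231. The part of fragment length, ribosomal RNA and these marker lists in the results that follow was not tested.

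Levels across libraries are given as CPM, scaled by the TMM method, and levels between genes as TPM, which is also scaled to transcript length. Each mean is ± SD with n = 3, and each log2 fold change is ± SE from edgeR's quasi-likelihood test. That SE is the absolute log2 fold change divided by the root of the test's F value. The spread of a gene was estimated over all 4 groups together. In comparisons with A549 3D, the most variable group, the SE and p-values may therefore understate the spread of that group. A gene counts as called where the Benjamini-Hochberg adjusted p over the 15304 genes tested was below 0.05. On the log2(TPM + 1) scale, used as an alternative, the median change of all genes was -0.376 in A549 and -0.252 in MDA-MB-231. Between the lines that median was -0.565 in 2D and -0.636 in 3D. A sign on that scale is therefore read relative to those medians. That reading is less sure for genes near or below 1 TPM, whose changes the added 1 shrinks. In bulk RNA, fewer cells of a type and less RNA per cell cannot be told apart.

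In A549, 6 of the 9 members tested were higher in 3D than in 2D and 2 were lower. AXIN2, RNF43 and WNT5A rose most, WNT5B and WNT7B fell, and LGR4 did not pass. Many genes moved in this comparison: 65.6% of all genes tested were called, 34.1% higher and 31.5% lower, so 8 of 9 is to be read against a high background. The libraries of the 2 cultures did not overlap for 8 of the 9 members and for 64.8% of all genes. A called change of at least 2-fold was found in 5 of the 9 members and in 26% of all genes. In MDA-MB-231, 5 of 10 members were called, where the share over all genes was 67.6% (33.4% higher and 34.2% lower), so the count was not above the background. WNT7B, RNF43 and WNT5B rose, and DKK1 and LGR4 fell. Libraries did not overlap for those 5 members and for 75.2% of all genes, and 3 members and 23.7% of all genes were called with a change of at least 2-fold. LEF1 was at 0 in A549 and has no test there.

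**Figure D1:**
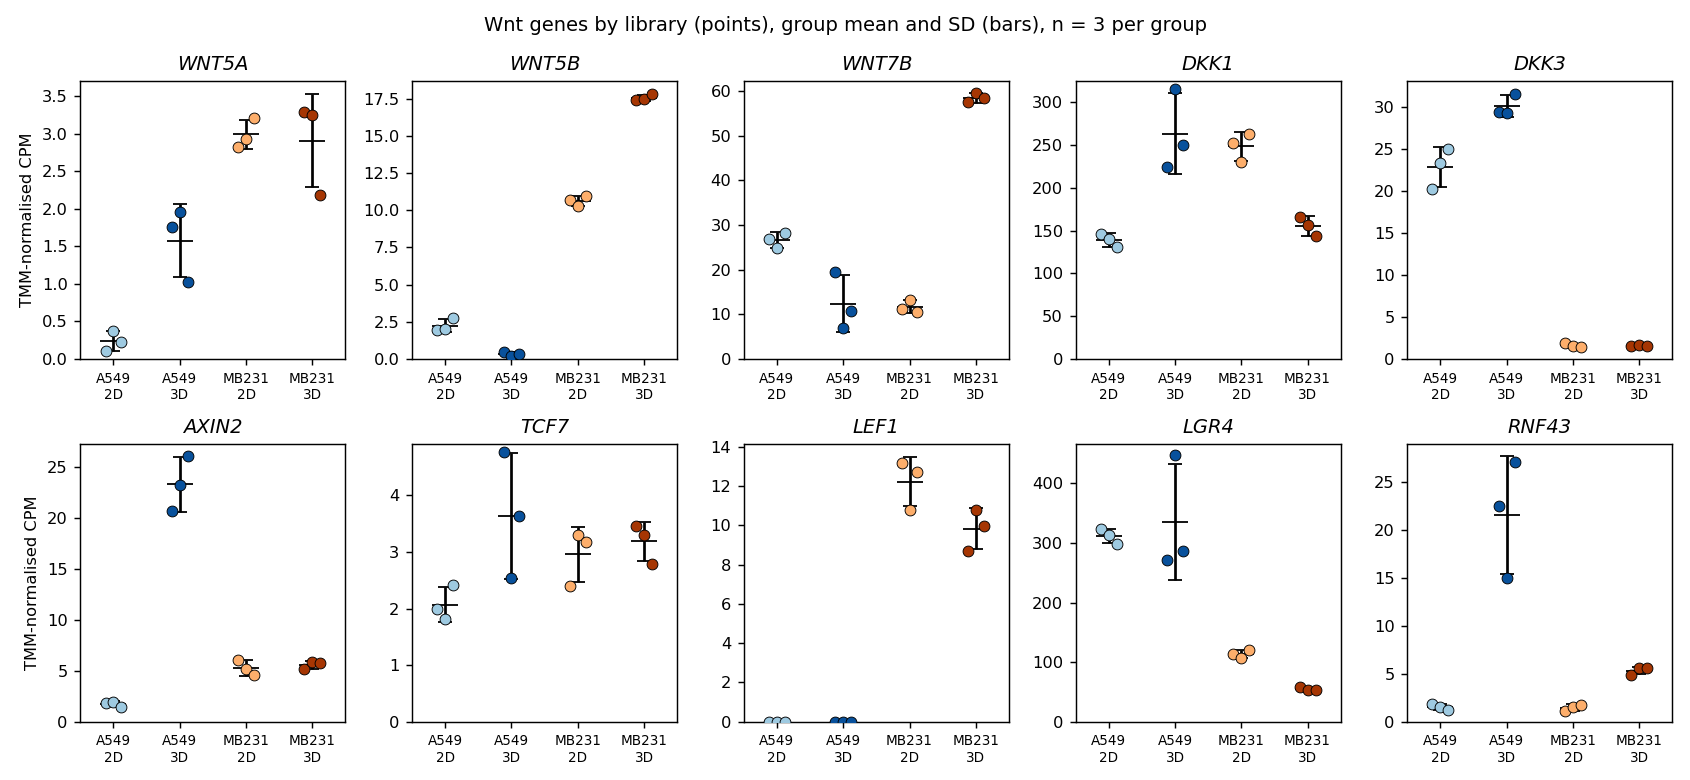
CPM of the 10 members in each of the 12 libraries; points are libraries, black lines the group mean ± SD of 3 libraries, and the vertical axis of each panel is linear and starts at 0. The light points are 2D and the dark points 3D, and MB231 stands for MDA-MB-231. AXIN2 lies between 20.7 and 26.1 CPM in A549 3D and below 7 CPM in the other 3 groups, while WNT7B is highest in MDA-MB-231 3D.

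WNT7B, a ligand of the canonical branch in lung and other epithelia, moved in opposite directions in the 2 lines. In MDA-MB-231 it measured 11.3, 13.3 and 10.6 CPM in 2D and 57.5, 59.6 and 58.4 in 3D. Libraries of the 2 cultures were far apart, and the log2 fold change was 2.32 ± 0.18 (edgeR adjusted p = 2.81e-08), larger than that of 98.6% of all genes tested. In A549 it measured 26.9, 24.8 and 28.3 CPM in 2D and 19.4, 7.03 and 10.7 in 3D. The groups did not overlap, but replicate 1 in 3D lay well above the other two. The change in A549 was -1.10 ± 0.20 (edgeR adjusted p = 1.79e-04). The difference between the changes, A549 minus MDA-MB-231, was -3.42 ± 0.27 (edgeR adjusted p = 5.95e-08).

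WNT5B, a ligand mostly tied to non-canonical signalling, showed the same opposition. A549 held 1.93, 2.02 and 2.75 CPM in 2D and 0.501, 0.195 and 0.315 in 3D, the latter from only 4, 1 and 8 counts. All 3 libraries in 3D lay below all 3 in 2D, and the log2 fold change was -2.69 ± 0.28 (edgeR adjusted p = 5.76e-07); 1.31% of all genes had a lower value. MDA-MB-231 held 10.7, 10.3 and 10.9 CPM in 2D and 17.4, 17.4 and 17.8 in 3D. The rise there was small and tight, 0.72 ± 0.10 (edgeR adjusted p = 1.62e-05). The changes differed by -3.42 ± 0.30 (edgeR adjusted p = 1.64e-07).

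WNT5A, the best known ligand of the non-canonical branch, was the scarcest of the 3 ligands in A549 2D. There it measured 0.111, 0.372 and 0.225 CPM, from 2, 7 and 4 counts, and 1.75, 1.95 and 1.03 CPM in 3D, from 14, 10 and 26 counts. The groups did not overlap, and the log2 fold change was 2.51 ± 0.43 (edgeR adjusted p = 9.39e-05). In MDA-MB-231 the values were 2.83, 2.93 and 3.21 CPM in 2D and 3.29, 3.25 and 2.19 in 3D. Those groups overlapped, with replicate 3 in 3D the lowest of the 6 and a change of -0.05 ± 0.24 (edgeR adjusted p = 0.877); limma on log2(TPM + 1) gave -0.26 (adjusted p = 0.0172). The changes in the 2 lines differed by 2.56 ± 0.49 (edgeR adjusted p = 3.86e-04).

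Per transcript length, the 3 ligands made up 53.5% of the summed TPM of all 19 WNT genes in A549 2D and 36.1% in A549 3D. In MDA-MB-231 the shares were 69.3% in 2D and 90.0% in 3D. The summed WNT ligand level was 19.98 ± 1.31 TPM in A549 2D and 8.93 ± 1.77 in 3D, against 28.96 ± 1.01 and 46.27 ± 0.75 in MDA-MB-231. WNT7B alone took 46.0% and 31.6% of the sum in A549 and 24.1% and 56.6% in MDA-MB-231. WNT5B took 41.1% and 31.6% in MDA-MB-231, so the leading ligand there was WNT5B in 2D and WNT7B in 3D. These shares and sums are a description of levels and were not tested. On the log2(TPM + 1) scale the median change of all genes in 3D was -0.376 in A549 and -0.252 in MDA-MB-231. Between the lines, A549 against MDA-MB-231, that median was -0.565 in 2D and -0.636 in 3D. The sums were not adjusted for these shifts.

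**Figure D2:**
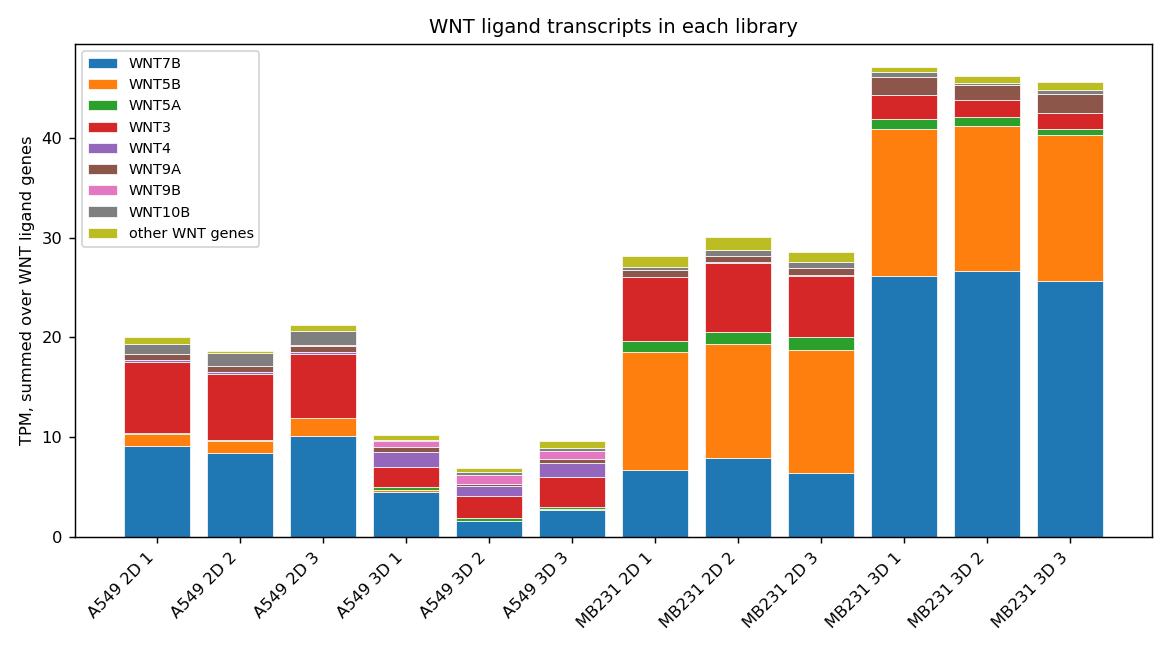
TPM of the WNT ligand genes, summed per library; each bar is a library, coloured segments are single WNT genes with the rarest joined as other, and the vertical axis starts at 0. The summed level is lowest in A549 3D and highest in MDA-MB-231 3D, where WNT7B (bottom segment, blue) takes the most.

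DKK1, which blocks the LRP co-receptors and is itself a known beta-catenin target, was the most abundant member in every group by TPM (104, 132, 324 and 151 TPM in A549 2D, A549 3D, MDA-MB-231 2D and MDA-MB-231 3D). In A549 it measured 146, 140 and 131 CPM in 2D and 225, 315 and 250 in 3D. Every 3D library was above every 2D library, and the log2 fold change was 0.92 ± 0.11 (edgeR adjusted p = 2.3e-06). In MDA-MB-231 it measured 252, 230 and 263 CPM in 2D and 166, 156 and 144 in 3D. Here every 3D library was below every 2D library, with a change of -0.68 ± 0.11 (edgeR adjusted p = 3.97e-05). The changes differed by 1.60 ± 0.15 (edgeR adjusted p = 4.57e-07).

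DKK3, a member of the Dickkopf family that, unlike DKK1, is not an established LRP blocker, separated the lines more than the cultures. A549 held 20.3, 23.3 and 25.1 CPM in 2D and 29.4, 29.3 and 31.6 in 3D. The groups did not overlap and the log2 fold change was 0.41 ± 0.10 (edgeR adjusted p = 0.00157). On the log2(TPM + 1) scale with limma the value was -0.16 (adjusted p = 0.176). Its sign turned there, but it lay above the median of all genes on that scale, -0.376. MDA-MB-231 held 1.86, 1.53 and 1.48 CPM in 2D and 1.60, 1.62 and 1.53 in 3D, a change of -0.04 ± 0.19 (edgeR adjusted p = 0.907; -0.25 with limma on log2(TPM + 1), adjusted p = 0.0486). The difference between the changes was 0.44 ± 0.21 and did not pass (edgeR adjusted p = 0.0851).

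Promoters are shown for DKK1, LEF1 and RNF43, an antagonist, a nuclear factor and a ligase whose levels differed between groups, to set the bases before the start of each gene beside its values. They are RefSeq sequences of build GRCh38.p14, 250 bases before the start, and were matched by symbol because the counts were made on hg19. Capitals mark the GC box, GGGCGG. They also mark a variant of the core bound by TCF and LEF proteins, CTTTGAA.
DKK1, chr10:52314031-52314280, plus strand: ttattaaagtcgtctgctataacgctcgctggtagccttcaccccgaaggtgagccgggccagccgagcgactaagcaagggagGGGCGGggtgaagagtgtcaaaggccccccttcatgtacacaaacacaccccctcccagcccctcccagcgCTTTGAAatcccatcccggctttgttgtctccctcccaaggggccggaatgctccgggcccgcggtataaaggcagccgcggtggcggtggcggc
LEF1, chr4:108166302-108166551, minus strand: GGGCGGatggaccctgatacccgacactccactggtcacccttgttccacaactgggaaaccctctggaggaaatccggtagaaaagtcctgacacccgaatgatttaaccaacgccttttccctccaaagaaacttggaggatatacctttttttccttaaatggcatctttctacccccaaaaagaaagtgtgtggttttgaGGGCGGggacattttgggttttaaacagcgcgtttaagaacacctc
RNF43, chr17:58417535-58417784, minus strand: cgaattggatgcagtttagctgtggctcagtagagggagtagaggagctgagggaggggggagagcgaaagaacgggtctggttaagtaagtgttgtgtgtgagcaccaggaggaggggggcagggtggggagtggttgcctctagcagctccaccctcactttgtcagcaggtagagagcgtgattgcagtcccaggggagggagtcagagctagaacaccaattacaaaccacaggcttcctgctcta
Of the 10 members, 7 matched, with 11 windows. Both strands were searched for these motifs and for the unchanged TCF/LEF core CTTTGAT, 3 motifs of which none contains another. That core was in 0 of the 11 windows, against 2.26% of 35116 windows of the same length. The variant core was in 1, that of DKK1, 89 bases before the start, against 3.8%. The GC box was in 5, against 42.6%, and the RNF43 window held none of the 3. A match of letters is a description of the window and not a binding site.

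LGR4, the receptor through which R-spondins raise Frizzled at the surface, was second in TPM in A549 and in MDA-MB-231 2D, at 79.4 and 58.0 TPM in A549 2D and 3D and 49.6 and 18.1 in MDA-MB-231. In MDA-MB-231 it measured 113, 106 and 120 CPM in 2D and 57.7, 52.8 and 53.9 in 3D. The 3 libraries in 3D were all below the 3 in 2D, and the log2 fold change was -1.04 ± 0.14 (edgeR adjusted p = 9.1e-06). In A549 it measured 323, 313 and 298 CPM in 2D and 272, 447 and 287 in 3D. Replicate 2 in 3D was the highest of the 6 and the other two the lowest, so the groups overlapped and the change was 0.10 ± 0.14 (edgeR adjusted p = 0.545). Without that library it was -0.16 (edgeR adjusted p = 0.0537), and with limma on log2(TPM + 1) it was -0.47 (adjusted p = 0.00627), so no direction is given for A549. The changes differed by 1.14 ± 0.20 (edgeR adjusted p = 1.52e-04).

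RNF43, the ligase that clears Frizzled and is itself a feedback target, was the one member that rose in both lines. A549 held 1.88, 1.54 and 1.18 CPM in 2D and 22.6, 15.0 and 27.1 in 3D. The lowest 3D library was far above the highest 2D library, and the log2 fold change was 3.87 ± 0.22 (edgeR adjusted p = 6.5e-10), above 97.7% of all genes. MDA-MB-231 held 1.10, 1.53 and 1.78 CPM in 2D and 4.89, 5.55 and 5.58 in 3D. The groups did not overlap there either, and the change was 1.87 ± 0.24 (edgeR adjusted p = 4.74e-06), above 97.4% of all genes. The rise was larger in A549 by 2.00 ± 0.35 (edgeR adjusted p = 1.67e-04). The expected counts of RNF43 were not whole numbers in 9 of 12 libraries (tolerance 0.005), as where reads are shared with other genes, so its level is uncertain to that extent.

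AXIN2, the scaffold that beta-catenin induces as feedback, rose in A549. It measured 1.88, 1.91 and 1.46 CPM in 2D and 20.7, 23.2 and 26.1 in 3D. The 2 groups were wide apart, and the log2 fold change was 3.75 ± 0.16 (edgeR adjusted p = 1.8e-11), above 97.6% of all genes tested. In MDA-MB-231 it measured 6.07, 5.15 and 4.56 CPM in 2D and 5.15, 5.82 and 5.80 in 3D. Those libraries overlapped, with a change of 0.10 ± 0.14 (edgeR adjusted p = 0.572). With limma on log2(TPM + 1) the value was -0.23 (adjusted p = 0.0734), near the median of all genes on that scale, -0.252. The difference between the changes was 3.65 ± 0.21 (edgeR adjusted p = 2.54e-09).

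TCF7, which encodes TCF-1, a DNA-binding partner of beta-catenin, was low in both lines. A549 held 1.99, 1.81 and 2.42 CPM in 2D and 4.76, 2.54 and 3.63 in 3D. The lowest 3D library was just above the highest 2D library, and the log2 fold change was 0.85 ± 0.23 (edgeR adjusted p = 0.0038); with limma on log2(TPM + 1) it was 0.13 and not called (adjusted p = 0.39). MDA-MB-231 held 2.40, 3.30 and 3.17 CPM in 2D and 3.46, 3.30 and 2.79 in 3D, which overlapped, with a change of 0.10 ± 0.20 (edgeR adjusted p = 0.694). The difference between the changes, 0.75 ± 0.30, was at the threshold (edgeR adjusted p = 0.0472), and DESeq2 did not call it (0.76, adjusted p = 0.0567). The call held without A549 2D replicate 3, A549 3D replicate 2 or MDA-MB-231 2D replicate 1, and it was lost without any one of the other 9 libraries (0.57 to 0.79, edgeR adjusted p 0.0626 to 0.119).

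LEF1, the related DNA-binding factor and itself a known target, was at 0 in all 6 A549 libraries. In MDA-MB-231 it measured 13.2, 10.8 and 12.7 CPM in 2D and 8.70, 10.8 and 9.97 in 3D. The groups met at 10.8 CPM, the highest 3D and the lowest 2D value, and the log2 fold change of -0.30 ± 0.13 missed the threshold (edgeR adjusted p = 0.0564). A fit of only the 6 MDA-MB-231 libraries did call it, at -0.29 (edgeR adjusted p = 0.0197), as did the fit without MDA-MB-231 2D replicate 2, at -0.39 (edgeR adjusted p = 0.0336), and limma on log2(TPM + 1), at -0.69 (adjusted p = 1.32e-05). With the A549 total set to a floor of 3 counts over the group, LEF1 was at least 223-fold lower in A549 than in MDA-MB-231 in 2D (0 against 844 counts) and at least 128-fold lower in 3D (0 against 486). The floors cover counting error only. The antisense gene LEF1-AS1 held at most 3.53 expected counts in any library, and 3 libraries had LEF1 counts that were not whole.

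**Figure D3:**
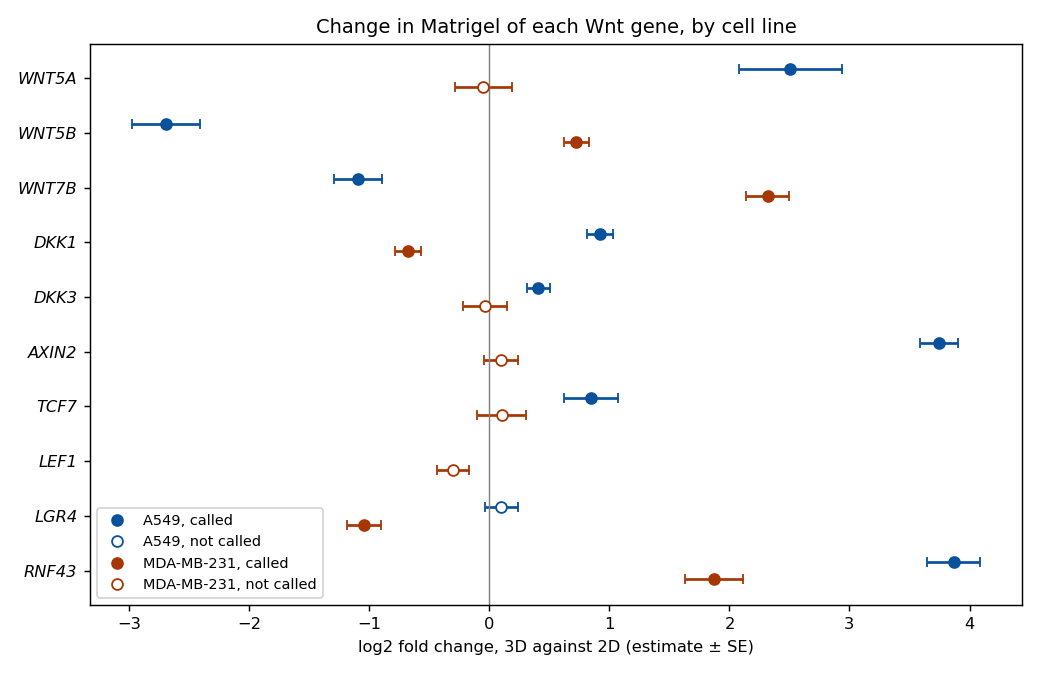
Log2 fold change of 3D against 2D for each member in A549 and MDA-MB-231, with bars of ± SE; filled points were called, open points were not, and the vertical line marks no change. RNF43 is right of 0 in both lines, WNT5B, WNT7B and DKK1 lie on opposite sides, and LEF1 has no A549 point.

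The difference between the lines' changes passed for 8 of the 9 members tested, against 56.1% of all genes tested. The change was the more positive in A549 for 6 of them (29.3% of all genes) and the more negative for 2 (26.7%). It was at least 2-fold in 7 of the 9 and in 26.5% of all genes. Among members called in both lines, RNF43 rose in both and DKK1, WNT5B and WNT7B went opposite ways. The other 6 of the 10 members were not called in both. Of the 15304 genes tested, 2346 rose in both lines, 2469 fell in both, 2171 went opposite ways and 8318 were not called in both.

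Between the lines in 2D, 9 of 10 members were called, against 81.6% of all genes, and 7 of them by at least 2-fold, against 46.2%. Both counts include LEF1, which had no counts in A549 and passed the filter only through MDA-MB-231. Its call between the lines was thus largely fixed in advance and adds no support. Higher in A549 were 3 members (42.8% of all genes) and lower 6 (38.8%). DKK3, LGR4 and WNT7B were higher in A549, by 3.81 ± 0.12 (edgeR adjusted p = 1.85e-13), 1.46 ± 0.14 (8.2e-08) and 1.18 ± 0.18 (1.99e-05) on the log2 scale. WNT5A, WNT5B, AXIN2, DKK1 and TCF7 were lower in A549, at -3.62 ± 0.35, -2.25 ± 0.13, -1.58 ± 0.17, -0.84 ± 0.11 and -0.51 ± 0.21, as was LEF1. The TCF7 call (edgeR adjusted p = 0.0348) was lost without replicate 1 or 2 of A549 2D or replicate 2 or 3 of MDA-MB-231 2D (-0.48 to -0.42, edgeR adjusted p 0.0899 to 0.126). The WNT7B call ended with limma on log2(TPM + 1), at 0.35 (adjusted p = 0.128), where the median of all genes was -0.565. RNF43 differed by 0.07 ± 0.29 and was not called (edgeR adjusted p = 0.843).

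In 3D, 9 of 10 members were called between the lines, against 83% of all genes, and 8 of them by at least 2-fold, against 52%. LEF1 is again in both counts, and its call was again largely fixed in advance by the filter. Higher in A549 were 5 members (43.9% of all genes) and lower 4 (39.2%). DKK3 (4.25 ± 0.14), LGR4 (2.61 ± 0.15), AXIN2 (2.07 ± 0.13), RNF43 (2.06 ± 0.19) and DKK1 (0.76 ± 0.11) were higher in A549 on the log2 CPM scale. With limma on log2(TPM + 1), DKK1 was at -0.20 (adjusted p = 0.101), where the median of all genes was -0.636. AXIN2 and DKK1 were thus lower in A549 than in MDA-MB-231 in 2D and higher in 3D. WNT5B (-5.67 ± 0.21), WNT7B (-2.23 ± 0.20), WNT5A (-1.06 ± 0.30) and LEF1 were lower in A549. The WNT5A call rested on A549 3D replicate 3, without which it was -0.65 (edgeR adjusted p = 0.0775). TCF7 differed by 0.23 ± 0.22 (edgeR adjusted p = 0.326) on counts. With limma on log2(TPM + 1) it was at -0.48 (adjusted p = 0.0036), beside the same median of -0.636.

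The order of the members by TPM changed with culture. In A549 2D it ran DKK1, LGR4, DKK3, WNT7B, WNT5B, TCF7, AXIN2, RNF43, WNT5A and LEF1, and no neighbours overlapped between libraries. In A549 3D, AXIN2 (5.08 TPM) and RNF43 (3.45) stood above WNT7B (2.93), though these 3 overlapped one another, as did WNT5A (0.247) and WNT5B (0.150). In MDA-MB-231 2D, WNT5B (11.9), LEF1 (9.07) and WNT7B (6.99) followed DKK1 and LGR4, and AXIN2 (2.88) and TCF7 (2.36) overlapped. In MDA-MB-231 3D, WNT7B (26.2) moved above LGR4 (18.1) and WNT5B (14.6), and TCF7 (1.94) and RNF43 (1.65) overlapped.

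A list of 118 Wnt pathway genes, members included, was counted by role, and 113 had a count. In A549, 72 of 91 tested genes (79.1%) were called, 36 higher and 36 lower, with a median log2 change of -0.003 against 0.031 over all genes. Of all genes tested there, 65.6% were called, 34.1% higher and 31.5% lower. In MDA-MB-231, 58 of 88 (65.9%) were called, 37 higher and 21 lower, with a median of 0.099 against 0. The share over all genes was 67.6% (33.4% higher and 34.2% lower), so that count was not above the background. The counts by role that follow are to be read against these same shares. With limma on log2(TPM + 1) the splits were 17 higher and 49 lower, and 17 higher and 32 lower. That scale moved the median of all genes to -0.376 and -0.252, so values on it are read relative to those medians. For the members the splits on that scale were 4 higher and 3 lower of 9 in A549, where 71.3% of all genes were called (15% higher and 56.4% lower), and 3 higher and 5 lower of 10 in MDA-MB-231, where 65.5% were (16.5% higher and 48.9% lower).

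**Figure D4:**
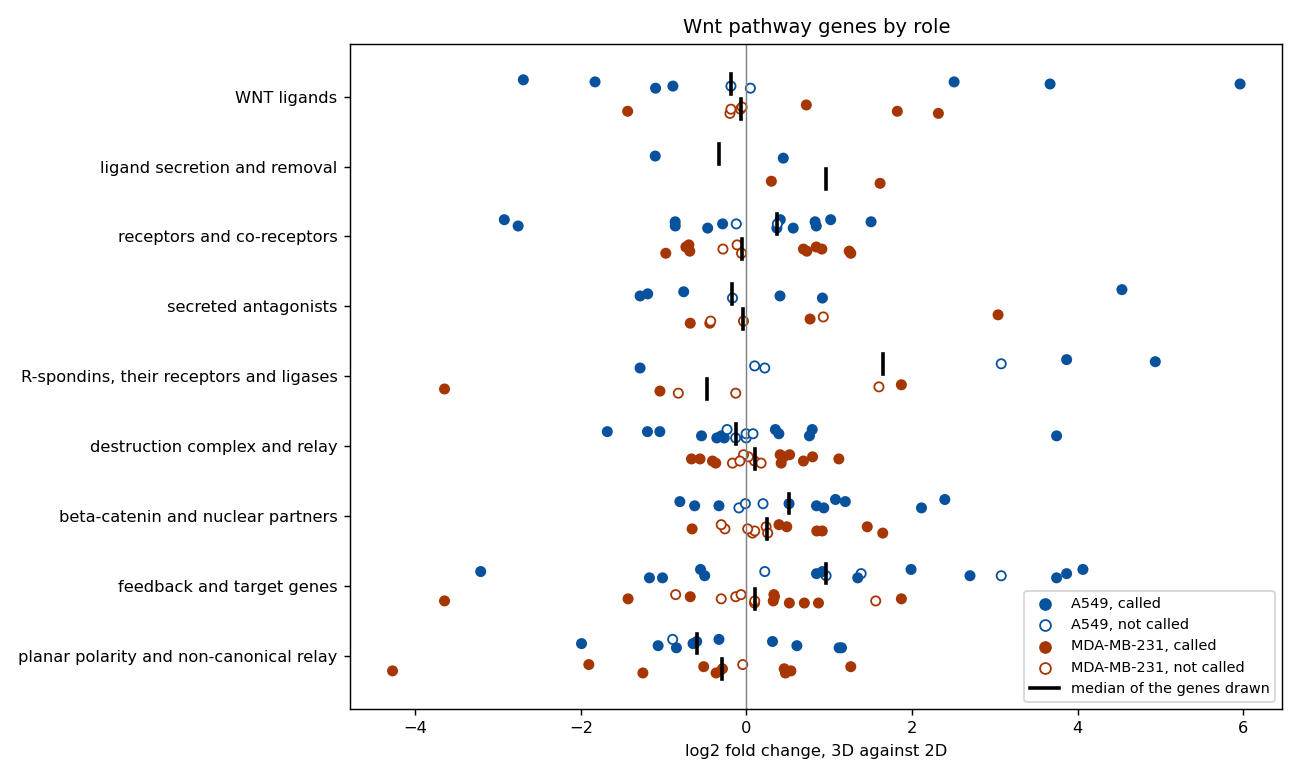
Log2 fold change of 3D against 2D for each tested gene of the Wnt pathway list, grouped by role, with A549 and MDA-MB-231 side by side; each point is a gene, filled where called, short black bars are medians and the vertical line marks no change. Apart from ligand secretion, each role has genes on both sides of 0 in both lines.

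Among the WNT ligands, 3 rose and 4 fell of 9 tested in A549, and 3 rose and 1 fell of 8 in MDA-MB-231. WNT4, a ligand known from kidney and mammary development, went from 0.438 to 5.56 CPM in A549 (log2 fold change 3.67 ± 0.25, edgeR adjusted p = 5.41e-09). WNT9B went from 3 to 151 counts in A549, a ratio of 71.6 (95% counting interval 24 to 351), and was at 0 in MDA-MB-231. WNT3, a canonical ligand, fell in both lines, by 0.89 in A549 and 1.44 in MDA-MB-231 on the log2 scale. WNT9A rose in MDA-MB-231, from 1.12 to 3.98 CPM (1.82 ± 0.21). WLS, the carrier that takes WNT proteins to the cell surface, fell in A549 (9.67 to 4.12 CPM) and rose in MDA-MB-231 (90.1 to 111 CPM), though not with limma on log2(TPM + 1), at -0.10 (adjusted p = 0.412). PORCN, the enzyme that attaches the lipid, rose in both, by 0.44 ± 0.16 and 1.61 ± 0.12, but on the log2(TPM + 1) scale its A549 value was -0.20 (limma adjusted p = 0.315).

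Receptors and co-receptors split too, with 7 higher and 6 lower of 15 in A549 and 6 higher and 4 lower of 13 in MDA-MB-231. FZD2, a Frizzled receptor, fell from 100.1 to 14.5 CPM in A549 (-2.76 ± 0.11) and rose from 29.1 to 48.2 in MDA-MB-231 (0.73 ± 0.10). PTK7, a co-receptor of planar polarity, fell from 7.57 to 0.708 CPM in A549 and rose from 141 to 227 in MDA-MB-231. FZD1 and FZD7 rose in both lines, although on the log2(TPM + 1) scale FZD1 was at 0.01 in A549 (limma adjusted p = 0.961). Of the secreted antagonists, 3 rose and 3 fell of 7 in A549, where SFRP1, a decoy for WNT proteins, fell from 75.3 to 32.5 CPM. Its relative SFRP4 (-0.76 ± 0.19) and KREMEN2, a receptor for DKK proteins (69 and 21 counts in all), fell there too. In MDA-MB-231, 2 rose and 2 fell, and SOST, an LRP blocker, went from 15 to 91 counts (3.04 ± 0.41). SOST held 0 and 6 counts in A549, too few to size its call.

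Of the R-spondins, their receptors and ligases, 2 rose and 1 fell of 6 in A549, and 1 rose and 2 fell in MDA-MB-231. RSPO3, a ligand of LGR4, measured 143 CPM in A549 2D and 58.7 in 3D (-1.28 ± 0.10) but only 0.404 and 0.233 in MDA-MB-231. LGR6, a relative of LGR4, went from 0.511 to 15.5 CPM in A549 (4.94 ± 0.26). LGR5, the stem cell marker of that family, fell from 4.43 to 0.325 CPM in MDA-MB-231 (-3.65 ± 0.37) and was at 0 in A549 2D.

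Destruction complex and relay genes counted 5 higher and 7 lower of 17 in A549 and 7 higher and 4 lower of 17 in MDA-MB-231. The kinase CSNK1E (-1.20 ± 0.09 in A549, 0.45 ± 0.08 in MDA-MB-231) and the relay protein DVL1 (-1.05 ± 0.12, 0.80 ± 0.11) fell in A549 and rose in MDA-MB-231. The kinase CSNK1D rose in MDA-MB-231 (1.12 ± 0.12), and TNKS, which marks axins for degradation, rose in A549 (0.76 ± 0.09).

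Of beta-catenin and its nuclear partners, 7 were higher and 3 lower of 13 in A549, and 6 higher and 1 lower of 14 in MDA-MB-231. CTNNB1, which encodes beta-catenin, averaged 574 and 538 CPM in A549 and 442 and 465 in MDA-MB-231 and was not called in either line (edgeR adjusted p = 0.302 and 0.423). CTNNBIP1, an inhibitor of the beta-catenin and TCF contact, rose in both, by 0.51 ± 0.13 and 1.46 ± 0.10. The corepressors TLE3 (2.11 ± 0.19 and 0.85 ± 0.15) and TLE2 (2.40 ± 0.30 and 1.65 ± 0.58) also rose in both. In MDA-MB-231, TLE2 rested on only 11 counts in 2D and 25 in 3D over the group. TLE1 fell in A549 (-0.80 ± 0.08) and rose in MDA-MB-231 (0.39 ± 0.08). Planar polarity and non-canonical relay genes counted 4 higher and 6 lower of 11 in each line. PRICKLE2 rose in both (0.31 ± 0.08 and 1.26 ± 0.08), VANGL1 (-0.85 ± 0.09 and -0.37 ± 0.08) and PRICKLE1 (-1.99 ± 0.24 and -0.29 ± 0.10) fell in both, and the small GTPase RHOU rose in A549 (1.12 ± 0.12) and fell in MDA-MB-231 (-1.25 ± 0.16). With limma on log2(TPM + 1), CTNNBIP1 (-0.05) and PRICKLE2 (-0.18) turned sign in A549 and TLE1 (-0.02) in MDA-MB-231. On that scale TNKS in A549, and CSNK1E, TLE2 and TLE3 in MDA-MB-231, were not called.

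Among feedback and target genes, 8 rose and 5 fell of 17 in A549 and 7 rose and 3 fell of 17 in MDA-MB-231. The targets did not move as one in A549: EPHB3 (4.06 ± 0.26) and MMP7 (2.70 ± 0.14) rose with AXIN2, while EPHB2 (-3.21 ± 0.16) and MYC (-1.17 ± 0.10) fell. MYC rose in MDA-MB-231 (0.52 ± 0.09), but with limma on log2(TPM + 1) it was 0.11 and not called (adjusted p = 0.432).

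Genes whose levels over the 12 libraries were most like those of 3 members were ranked by Pearson r of log2 CPM, a description over points that share group and depth. For AXIN2, among 9658 genes, they were FN1 (r = 0.989), FAM13A (0.986) and SERPINB1 (0.984). For WNT5A they were MYO6 (0.977), IGFBP1 (0.975) and RGL1 (0.972), and for DKK1, among 9657 genes, GALC (0.973), PTGR2 (0.972) and POC1B (0.965).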

How the data were processed

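RNA was measured in 12 libraries. Per the labels, TRIZOL was used for total RNA, and libraries came from a stranded kit with ribosomal RNA removed. The authors deposited RSEM expected counts (estimated counts that split shared reads) and TPM per gene, on hg19 per the submitters' processing notes; version, aligner, annotation and strand use were not given in the sources used here. The deposited transcript lengths, in bases, gave the mean fragment length from length minus effective length of genes over 2000 bases. There were 0 columns of other series. Library totals ran from 5609327 to 28171901, which sets the counting precision of low genes.

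Expected counts were rounded, filtered with filterByExpr (15304 genes left) and scaled with TMM. One edgeR 4.0.16 quasi-likelihood model (R 4.3.3) of 4 group means used all 12 libraries, with 8 residual degrees of freedom. Tests are two-sided with Benjamini-Hochberg adjustment. Contrasts were 3D against 2D by line, their difference, and the lines in each culture. Alternatives were DESeq2 1.42.0, limma 3.58.1 on log2(TPM + 1), other scalings and filters, a replicate block, 6-library fits and leaving out each library. The model was run on simulated counts with the same spread in every group, so that run does not cover the wider spread of A549 3D. All members were named; other list genes were named by smallest adjusted p over both comparisons of 3D against 2D, up to 4 called genes per role, and a further gene, CTNNB1, was named after its values were seen. The members and lists were chosen with earlier results of these data known. Genes most like WNT5A, DKK1 and AXIN2 were the 3 of highest r among tested genes whose mean log2 CPM reached 3, without LOC symbols and small structural RNAs. Promoters are GRCh38.p14 and were matched by symbol.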

Additional observations from a re-analysis of the deposited data

Results flagged for a closer look

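For 8 members the change from 2D to 3D differed between A549 and MDA-MB-231 by a test of the difference itself (edgeR, adjusted over all genes tested). The difference of log2 fold changes, A549 minus MDA-MB-231, was 2.56 for WNT5A, -3.42 for WNT5B, -3.42 for WNT7B, 1.60 for DKK1, 3.65 for AXIN2, 0.75 for TCF7, 1.14 for LGR4 and 2.00 for RNF43. The share of all genes with such a difference was 56.1%. TCF7 was the one of these 8 whose call was lost under alternatives.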

How the results depend on the processing

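Over the 9 kinds of alternative, 677 of 717 member values kept their direction and side of the threshold, 21 lost a call, 5 gained one and 14 changed sign. With limma on log2(TPM + 1), the count of members called in MDA-MB-231 was 8 of 10 in place of 5. The share of all genes called there was 65.5% in place of 67.6%. On that scale signs turned for DKK3 (-0.16) and LGR4 (-0.47) in A549, where the median of all genes was -0.376. They also turned for AXIN2 (-0.23) and TCF7 (-0.19) in MDA-MB-231, where it was -0.252. Between the lines, RNF43 turned in 2D (-0.22, median of all genes -0.565), and DKK1 (-0.20) and TCF7 (-0.48) in 3D (median -0.636). These signs are read relative to those medians, which is less sure for low genes. RNF43 in 2D averaged 0.357 TPM in A549 and 0.583 in MDA-MB-231, so no side of the median is read for it. The pseudocount of 1 also shrinks the changes of low genes (in A549, 0.24 for WNT5A, 1.96 for AXIN2 and 1.68 for RNF43, all still called). Leaving out each library in turn gave ranges that crossed 0 for LGR4 in A549 (-0.16 to 0.22), for WNT5A (-0.16 to 0.13), DKK3 (-0.10 to 0.07) and TCF7 (-0.03 to 0.19) in MDA-MB-231, and for RNF43 between lines in 2D (-0.12 to 0.22); none of these was called with all 12 libraries. The replicate numbers did not pair samples (same-number correlations -0.07 to 0.10). With a replicate block the members called numbered 8 in A549, 5 in MDA-MB-231, 7 for the difference, 8 between lines in 2D and 9 in 3D, against 63.2%, 65.8%, 54.1%, 80.5% and 82% of all genes, with TCF7 no longer called for the difference (0.73, edgeR adjusted p = 0.0791) or in 2D (-0.51, edgeR adjusted p = 0.0541). The causes were not tested. WNT5A and WNT5B in A549 rest on few counts, which limits their precision.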
